A study of Mus musculus with 8 samples.

Results

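The aminoacyl-tRNA synthetase genes were described here in the nuclear RNA of mouse forebrain excitatory neurons after pilocarpine-induced seizure. The genes were found by symbol: the cytosolic and mitochondrial synthetases of each amino acid (Aars, Aars2 and so on), the split or fused enzymes Farsa, Farsb and Eprs, and the scaffold genes Aimp1 and Aimp2. A gene also needed at least 10 counts in 4 or more columns of the exonic table. All 39 genes that matched by symbol met this minimum, out of 55471 genes in that table. Of these, 18 encode cytosolic enzymes, 17 mitochondrial enzymes, 2 (Gars and Kars) enzymes used in both compartments, and 2 scaffold proteins.

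An aminoacyl-tRNA synthetase joins an amino acid to its tRNA, the step that sets which amino acid a codon receives. Most amino acids have separate nuclear genes for the cytosolic enzyme and for the mitochondrial enzyme, which charges the tRNAs that translate respiratory chain subunits inside mitochondria. In animal cells several cytosolic synthetases are held in a multisynthetase complex by scaffold proteins, among them Aimp1 and Aimp2. The 7 genes counted as complex enzymes here are Dars, Eprs, Iars, Lars, Mars, Qars and Rars. Kars also belongs to the complex but is counted with the dual enzymes. Many cytosolic synthetase genes are targets of Atf4, a transcription factor of the integrated stress response whose translation is favoured when eIF2 is phosphorylated, for example on uncharged tRNA. Inherited defects of cytosolic and mitochondrial synthetases are known for effects on the brain and peripheral nerves.

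Nuclei were taken from male C57BL/6J mice of 6 to 8 weeks, all of genotype CaMKIIalpha-Cre:SUN1-sfGFP. A promoter active in forebrain excitatory neurons thus drives Cre, and Cre switches on a fluorescent nuclear envelope tag by which nuclei are pulled down (INTACT). The Mock group (4 samples) received scopolamine methyl nitrate at 1 mg/kg, then saline. The Pilo group (4 samples) received the same scopolamine and, 30 min later, the muscarinic agonist pilocarpine at 340 mg/kg. Pilo mice had 100 min to develop seizures and were kept only at Racine scores of 3 to 5, a selection that Mock mice did not undergo. Scopolamine was given to both groups, so no group shows untreated neurons. Whether a sample is 1 mouse is not stated in the labels. The p-values therefore cover only the spread over these samples, part of which may be technical. In such bulk nuclear RNA, fewer cells of a type and less RNA per cell cannot be told apart.

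Exonic counts per library ranged from 29356788 to 36161448 and intronic counts, from a second table, from 11928054 to 16703475. Fos, an immediate early gene, rose by 3.23 on the log2 scale (SE 0.46, edgeR adjusted p = 0.00228). The 6 excitatory neuron markers were detected in all libraries, with summed levels of 2270 to 2910 CPM (counts scaled to library totals) in Mock and 2540 to 3100 in Pilo, and 3 of 6 were called higher in Pilo. Markers of other cells were also present, and no marker of the 6 lists was at 0 in all libraries. The 6 GABAergic markers summed to between 117 and 154 CPM in Mock and 153 to 240 in Pilo, with 2 of 6 called higher. The 6 oligodendrocyte markers summed to 281 to 383 in Mock and 362 to 646 in Pilo, with 1 called higher. Astrocyte markers summed to 174 to 318 in Mock and 181 to 412 in Pilo, microglia markers to 11.5 to 19.8 and 13.5 to 22.8, and endothelial markers to 4.23 to 18.7 and 6.82 to 50.8. Of these 3 lists 0 markers were called by edgeR, 0 had an unadjusted p under 0.05 and DESeq2 called 0. For all 5 of these other cell types the highest sum was in Pilo replicate 3 of the exonic table, so results that change without it are given below. The part of other cells in the results was not tested. In both groups replicate 2 of the exonic table resembled replicate 3 of the second table, and the reverse, so those numbers appear to be swapped. Each replicate number below is the one printed in the table that gave the value.

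The stretches upstream of the genes bear on the Atf4 comparison given further on. 3 motifs were searched on both strands in the 250 bases before the gene start, in windows from RefSeq (GRCm38.p6, the assembly called mm10). A window was at hand for 29 of the 39 genes. The C/EBP-Atf response element, to which Atf4 can bind, was spelled TGATGNAA and lay in the windows of 3 of these genes, Aars, Gars and Tars. Among all 32851 windows 3.45% held it. The palindromic cAMP response element TGACGTCA was in none of the 29 and in 1.55% of all windows, and the AP-1 motif TGANTCA was in 1 (Qars) and in 6.75% of all windows. TGATGNAA overlaps neither of the other motifs where it was found here. A match describes letters only. The matches of Gars and Tars are shown first, 5′ to 3′ on the gene's strand with the motif, here read as its reverse complement, in capitals. The Gars stretch is chr6:55037960-55037989 (plus strand, motif starting 30 bases before the gene start), and that of Tars chr15:11399666-11399694 (minus strand, 15 bases before).

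Gars: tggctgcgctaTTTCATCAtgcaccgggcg
Tars: agggcggggccaggagtcccgTTGCATCA

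The 150 bases before the start of Eprs (chr1:185362894-185363043, plus strand) and of Mars (chr10:127311787-127311936, minus strand) are shown because these enzymes of 1 complex moved in opposite directions. Neither gene's 250-base window held any of the 3 motifs, so there are no capitals. The Eprs stretch has a GC content of 66.0% and 17 CG pairs, and the Mars stretch has 59.3% and 15.

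Eprs: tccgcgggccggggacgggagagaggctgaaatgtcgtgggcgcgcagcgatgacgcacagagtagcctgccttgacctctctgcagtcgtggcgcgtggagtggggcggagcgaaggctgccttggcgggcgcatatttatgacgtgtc
Mars: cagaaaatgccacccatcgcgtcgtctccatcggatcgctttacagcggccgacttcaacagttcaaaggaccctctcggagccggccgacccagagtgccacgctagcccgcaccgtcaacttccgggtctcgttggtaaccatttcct

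The baseline levels were compared between genes per kilobase of merged exons, in Mock. The seryl enzyme gene Sars was highest at 54.8 CPM per kb (range over the 4 libraries 46.9 to 59.6), followed by Hars2 at 37.4 (33.3 to 40.1), Mars at 33.8 (30.3 to 35.4) and Nars at 33.6 (32.2 to 36.1). The last 3 of these overlapped each other in range, whereas Sars lay above them in every library. Cytosolic enzyme genes had a median of 15.2 CPM per kb and mitochondrial enzyme genes of 5.20. The lowest were Fars2 at 1.11 (phenylalanine) and Wars2 at 1.10 (tryptophan), both mitochondrial. Merged exons hold the exons of every annotated transcript, so these levels and their order also depend on the annotation. Eprs, at 88.65 CPM in Mock, had 4.90 CPM per kb over 18102 bases. Hars, at 46.8 CPM, had 19.1 CPM per kb over 2447 bases.

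Exonic counts, which hold reads of spliced and unspliced RNA alike, showed no common direction over the family. In Pilo 7 of the 39 genes rose (Eprs, Fars2, Aars, Hars, Nars, Rars and Aimp1), 8 fell (among them Pars2, Yars2, Mars, Cars2, Dars, Rars2 and Tars2) and 24 passed the test in neither direction. Over all 19176 genes tested 15.6% were called higher and 16.2% lower, so the share of synthetase genes called was near that of genes at large. The calls come from the quasi-likelihood test of edgeR at an adjusted p (Benjamini-Hochberg, over all genes) under 0.05. With the replicate number as a block, which pairs Mock and Pilo libraries of the same number, 11 were called higher (adding Farsa, Iars, Yars and Qars) and 12 lower (adding Aimp2, Vars2, Nars2 and Lars2). The share of all genes called with the block was not computed. Counts with the block, here and below, therefore cannot be set beside the shares given for all genes. In 7 of the 39 genes every Pilo library lay above every Mock library, in 9 every one lay below, and in 23 the groups overlapped. The share of all genes without overlap was not computed. Remarks below on groups that do not overlap therefore add no support to the calls. The median log2 fold change was -0.02 over the 39 genes and 0.005 over all genes. The compartments lay on different sides of it. The 18 cytosolic enzyme genes had a median of 0.145, with 5 higher and 2 lower (9 and 2 with the block). The 17 mitochondrial enzyme genes had a median of -0.20, with 1 higher and 6 lower (1 and 9 with the block), and 14 of the 17 had a negative value. Summed over genes, cytosolic enzymes outside the complex gave 1106 ± 67.6 CPM in Mock and 1220 ± 79.6 in Pilo (SD, n = 4). The mitochondrial enzymes gave 846 ± 53.1 and 750.0 ± 42.2.

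**Figure D1:**
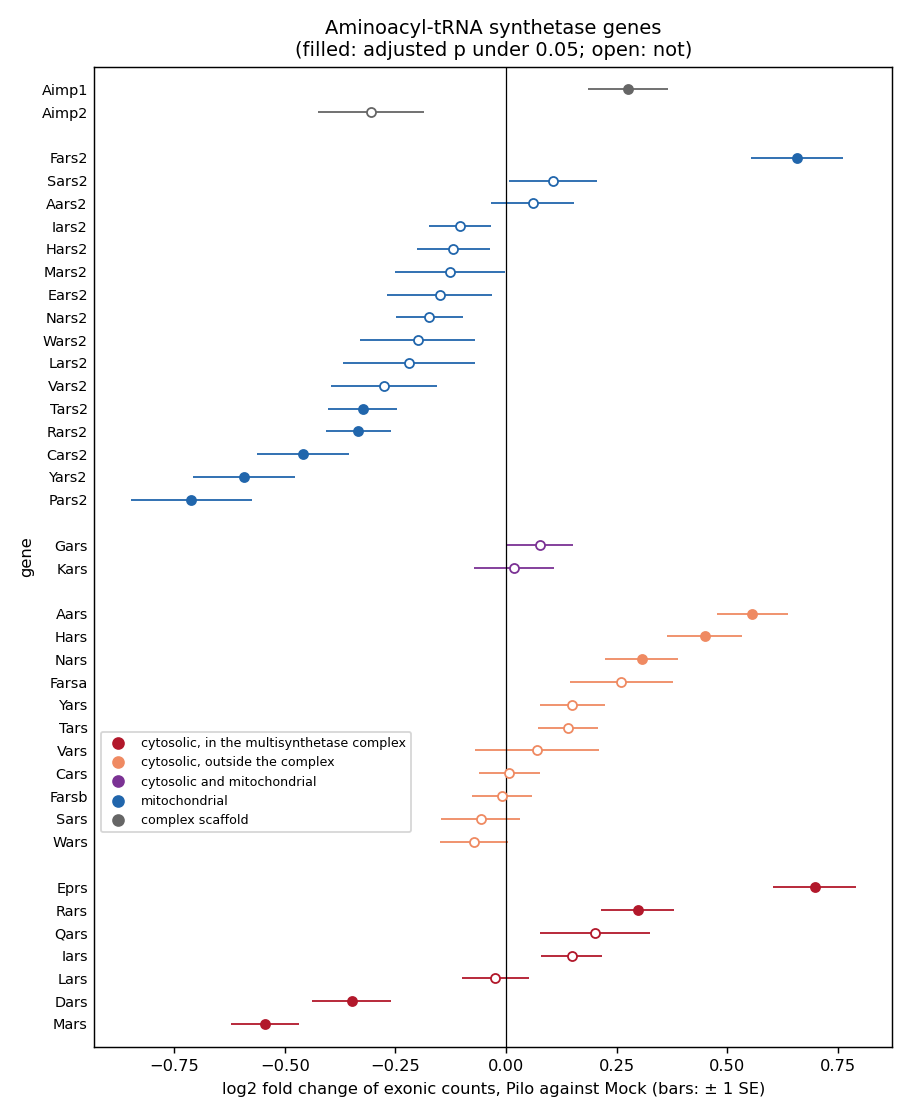
Log2 fold change of exonic counts, Pilo against Mock, for 38 of the 39 genes, grouped by compartment; points are edgeR estimates, bars ± 1 SE, and filled points passed adjusted p under 0.05. Most mitochondrial genes lie to the left of 0, with Fars2 at 0.66 as the filled point on the right, and the complex genes spread from -0.54 for Mars to 0.70 for Eprs.

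Within the multisynthetase complex the genes went different ways. Of the 7 enzyme genes counted in it here, 2 rose, 2 fell and 3 passed in neither direction. The shares over all genes were 15.6% higher and 16.2% lower. Kars, counted with the dual enzymes, had 0.02 (edgeR adjusted p = 0.905). Eprs (ENSMUSG00000026615, chromosome 1, 185363044 to 185428360 in GENCODE) encodes the fused enzyme that charges tRNAs with glutamate and proline. It stood at 96.0, 85.1, 85.9 and 87.6 CPM in the Mock libraries and at 166, 137, 121.5 and 151 in the Pilo libraries. Every Pilo library lay above every Mock library, and the lowest Pilo value was that of replicate 3. Eprs rose by 0.70 (SE 0.09, fold 1.62, edgeR adjusted p = 0.000128), the largest rise among the 39. Rars, the arginyl enzyme, stood at 32.1, 31.1, 33.3 and 31.85 CPM in Mock and 45.0, 35.9, 38.2 and 38.6 in Pilo. It rose by 0.30 (SE 0.08, edgeR adjusted p = 0.0144), again with no overlap of the groups.

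Mars (ENSMUSG00000040354, chromosome 10, 127296221 to 127311786), the methionyl enzyme that charges both initiator and elongator tRNAs, was at 118, 121, 104 and 119.5 CPM in Mock. In Pilo it was at 73.1, 85.1, 79.9 and 79.0, all below the lowest Mock library. It fell by 0.54 on the log2 scale (SE 0.08, edgeR adjusted p = 0.000176). Dars, the aspartyl enzyme, fell by 0.35 (SE 0.09, edgeR adjusted p = 0.00983), from 22.6 to 26.55 CPM in Mock to 17.6 to 21.5 in Pilo. The remaining genes counted in the complex did not pass the test. Qars (glutamine) had 0.20 and Iars (isoleucine) 0.15, both called with the block at edgeR adjusted p = 0.00498 and 0.0228. Lars (leucine) had -0.02.

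The scaffold genes Aimp1 and Aimp2 also parted. A further scaffold gene, Eef1e1 (Aimp3), is not matched by symbol and is counted with the relatives and tRNA partners below. Eef1e1 had -0.26 in exonic counts (edgeR adjusted p = 0.145) and -0.97 in intronic counts (edgeR adjusted p = 0.000565). Aimp1, which binds tRNA and anchors Rars in the complex, was at 12.4, 11.7, 11.75 and 11.6 CPM in Mock and 14.1, 14.0, 15.65 and 13.7 in Pilo, a rise of 0.28 (SE 0.09, edgeR adjusted p = 0.0326). That call went away when Mock replicate 2, 3 or 4 or Pilo replicate 2, 3 or 4 was left out (edgeR adjusted p between 0.0516 and 0.0762), with no filter on low counts (0.115) and in the exonic columns of the second table (0.0555). The log2 fold change of Aimp1 was 0.235 to 0.301 in these fits. Aimp2, the core scaffold, had -0.31 (SE 0.12, edgeR adjusted p = 0.0686), was called lower with the block (0.00918), without Pilo replicate 1 (0.0487) or Pilo replicate 2 (0.0428) and in the second table (0.0459), and its exons share 29.4% of their length with Eif2ak1 on the other strand.

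**Figure D2:**
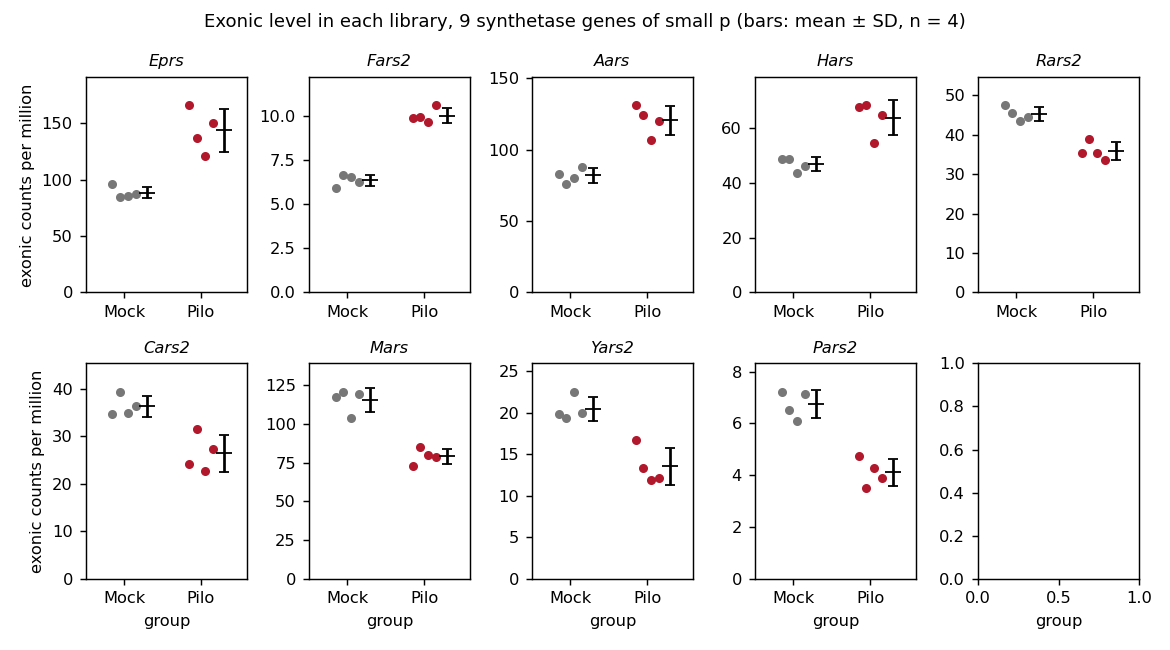
Exonic CPM in each library for 9 synthetase genes of small p; grey points are the 4 Mock libraries, red points the 4 Pilo libraries, and bars the mean ± SD, on axes that start at 0. In all 9 genes the groups do not overlap, with Pilo above Mock for Eprs, Fars2, Aars and Hars and below it for the other 5. The genes were picked by their small p, which favours such separation, so it adds no support.

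Among the 11 cytosolic enzyme genes outside the complex 3 rose (Aars, Hars and Nars), beside 15.6% of all genes called higher. By edgeR none was called lower, beside 16.2% of all genes. In that direction 0 of the 11 had an unadjusted p under 0.05 and DESeq2 called 0. Aars (ENSMUSG00000031960, chromosome 8, 111033144 to 111057664), the alanyl enzyme, was at 83.2, 76.1, 80.4 and 87.9 CPM in Mock and at 131, 124, 107 and 119.8 in Pilo. It rose by 0.56 (SE 0.08, edgeR adjusted p = 0.000207). Hars, the histidyl enzyme, was at 49.0, 48.6, 43.5 and 46.2 CPM in Mock and 67.9, 68.4, 54.7 and 64.7 in Pilo, and rose by 0.45 (SE 0.08, edgeR adjusted p = 0.00128). Both genes were separated between the groups, and in both the lowest Pilo library was replicate 3.

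Nars, the asparaginyl enzyme, rose by 0.31 (SE 0.08, edgeR adjusted p = 0.0119), from 140.2 to 157 CPM in Mock to 160.4 to 202 in Pilo. The 2 subunits of the cytosolic phenylalanyl enzyme, a tetramer made of both, had different values: Farsa had 0.26 (SE 0.12, edgeR adjusted p = 0.108) and Farsb -0.01 (SE 0.07). Without Pilo replicate 3, Farsa (0.35, edgeR adjusted p = 0.0300), Qars (0.31, 0.0465) and Yars (0.21, 0.0412) passed the test, so that 8 rather than 5 cytosolic enzyme genes were called higher. Sars, the most abundant per length, had -0.06 (SE 0.09), and Cars, Vars and Wars lay between -0.07 and 0.07. The dual enzymes Gars (0.08) and Kars (0.02) also did not pass.

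Of the mitochondrial enzymes 6 of 17 fell and 1 rose, beside 16.2% and 15.6% of all genes called lower and higher. With the block 9 were called lower. Pars2 (ENSMUSG00000043572, chromosome 4, 106651069 to 106655282), the prolyl enzyme, was at 7.23, 6.535, 6.10 and 7.14 CPM in Mock and 4.74, 3.52, 4.27 and 3.91 in Pilo. It fell by 0.71 (SE 0.14, edgeR adjusted p = 0.00154), the largest fall among the 39. Yars2, the tyrosyl enzyme, was at 19.8, 19.3, 22.6 and 20.0 CPM in Mock and 16.8, 13.3, 11.96 and 12.1 in Pilo, and fell by 0.59 (SE 0.115, edgeR adjusted p = 0.00165). In both genes all Pilo libraries were below all Mock libraries.

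Cars2, the cysteinyl enzyme, fell by 0.46 (SE 0.10, edgeR adjusted p = 0.00411), from 34.6 to 39.4 CPM in Mock to 22.6 to 31.5 in Pilo. Rars2, the arginyl enzyme whose defects cause a pontocerebellar hypoplasia, fell by 0.33 (SE 0.07, edgeR adjusted p = 0.00377), and Tars2 (threonine) by 0.32 (SE 0.08, edgeR adjusted p = 0.00647). The groups did not overlap in any of these 3 genes. Of the 10 mitochondrial genes that did not pass, 8 had negative values, from -0.28 in Vars2 to -0.105 in Iars2, and Sars2 (0.11) and Aars2 (0.06) had positive ones. Vars2 was called lower with the block (-0.27, edgeR adjusted p = 0.00674), with no filter on low counts (-0.28, 0.0378) and without Mock replicate 3 (-0.36, 0.0131) or Pilo replicate 2 (-0.35, 0.0421).

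Fars2 (ENSMUSG00000021420, chromosome 13, 36117412 to 36726280 in GENCODE) was the mitochondrial gene that rose. It encodes the phenylalanyl enzyme, a single chain unlike its cytosolic counterpart. It was at 5.94, 6.63, 6.55 and 6.27 CPM in Mock and 9.91, 9.92, 9.66 and 10.6 in Pilo, with a narrow spread in each group and no overlap. It rose by 0.66 (SE 0.10, edgeR adjusted p = 0.000399). The GENCODE model of Fars2 runs into Nrn1 on the opposite strand, and 501 bases, 8.7% of Fars2 exons, are shared. Nrn1, an activity-regulated gene of neurite growth, rose by 0.46 (SE 0.08, edgeR adjusted p = 0.000803). The RefSeq model of Fars2 ends at 36537595, before Nrn1 begins at 36725622, and the part of Nrn1 reads in the exonic counts of Fars2 was not tested. In the second table, whose entries are Entrez genes with gene models not given in the sources used here, the exonic change of Fars2 was 0.59.

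For each amino acid the cytosolic gene was set beside the mitochondrial gene, which gives 18 pairs, with Eprs in 2 of them and Fars2 in 2. The cytosolic gene had the higher exonic log2 fold change in 14 pairs and the mitochondrial gene in 4, with a median difference of 0.405. Pairs share genes and libraries, and the members were chosen with results known, so no test is given. The widest difference was proline, where Eprs had 0.70 and Pars2 -0.71. Glutamate came next with 0.70 for Eprs and -0.15 for Ears2, then tyrosine with 0.15 for Yars and -0.59 for Yars2, and arginine had 0.30 for Rars and -0.33 for Rars2. The 4 pairs with the mitochondrial gene above were both phenylalanine pairs, methionine (Mars -0.54, Mars2 -0.13) and serine (Sars -0.06, Sars2 0.11). For intronic counts 14 of 17 pairs had the cytosolic gene above, with a median difference of 0.489. The 3 intronic exceptions were other pairs: leucine (Lars -0.42, Lars2 -0.13), threonine (Tars -0.15, Tars2 -0.12) and tryptophan (Wars -0.19, Wars2 -0.08). Both phenylalanine pairs and serine had the cytosolic gene above in introns, and methionine had no intronic pair.

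**Figure D3:**
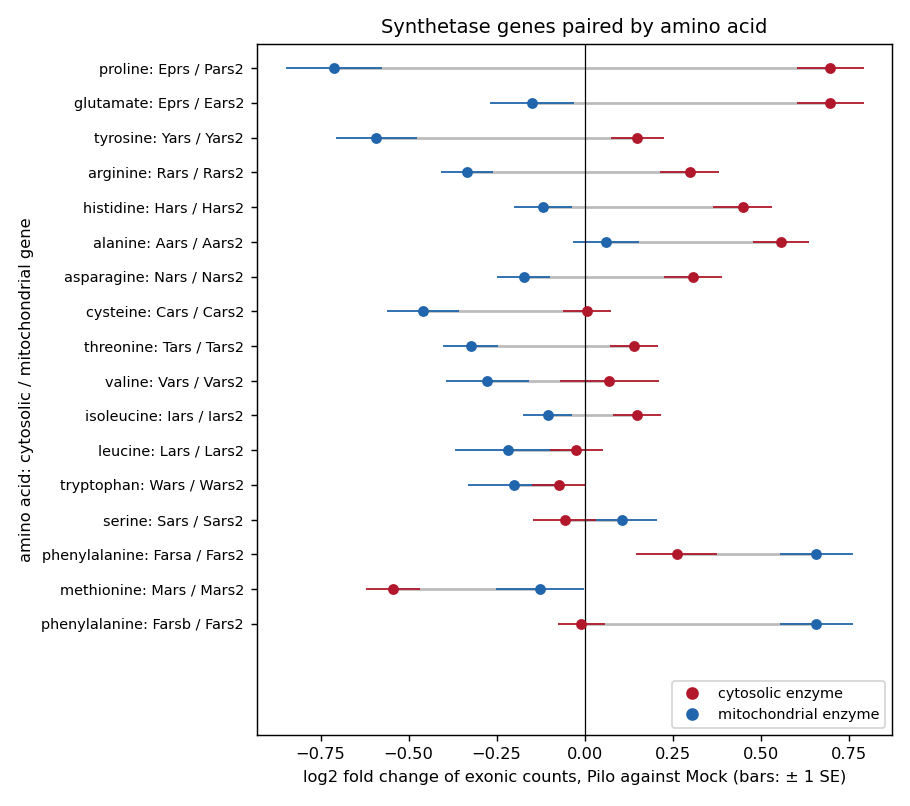
Exonic log2 fold change (± 1 SE) of the cytosolic gene in red and the mitochondrial gene in blue for 17 of the 18 pairs, ordered by their difference. Red lies to the right of blue in 13 of these 17, from proline at the top down to tryptophan.

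Hars and Hars2 offered a comparison within a locus. They lie head to head on chromosome 18, with overlapping first exons and starts 197 bases apart, and encode the cytosolic and mitochondrial histidyl enzymes. Hars rose by 0.45 in exonic counts as above, while Hars2 had -0.12 (SE 0.08, edgeR adjusted p = 0.300). The ratio of Hars to Hars2 counts within a library needs no scaling between libraries. In exonic counts it was 0.303, 0.284, 0.305 and 0.280 in Mock and 0.442, 0.4325, 0.406 and 0.450 in Pilo, a mean of 0.293 ± 0.0129 against 0.433 ± 0.0191 (SD, n = 4). In intronic counts it was 0.271 ± 0.0100 against 0.484 ± 0.0287. The groups did not overlap in either, and the two-sided exact permutation p of 0.0286 is the smallest that 4 against 4 allows. This pair was picked after its values were seen, and groups that do not overlap fix that p, so it adds no support. The permutation also did not keep the pairs given by the replicate numbers. The gene models share 195 exonic bases, 8.0% of Hars and 4.6% of Hars2.

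**Figure D4:**
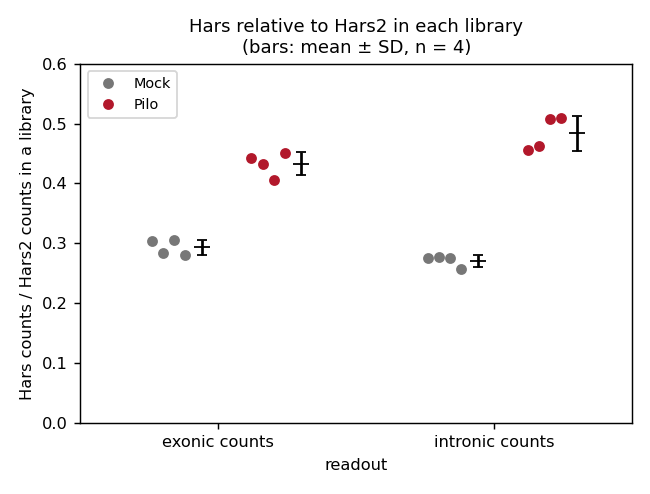
Ratio of Hars to Hars2 counts in each of the 8 libraries, for exonic and for intronic counts; points are libraries, grey for Mock and red for Pilo, and bars the mean ± SD. Every Pilo ratio is above every Mock ratio, around means of 0.433 against 0.293 in exons and 0.484 against 0.271 in introns.

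Intronic counts, which come from RNA not yet spliced or from retained introns, were at hand for 38 of the 39 genes. Mars2, whose gene has a single exon, has no intronic value. In Pilo 7 of the 38 rose and 10 fell, against 19.6% of all 13318 genes tested called higher and 21.9% lower, so these shares too were near those of genes at large. With the replicate block 10 were called higher (adding Iars, Sars and Aars2) and 13 lower (adding Wars, Kars and Vars2). Both exonic and intronic counts rose in 4 genes (Aars, Eprs, Hars and Nars) and fell in 7 (among them Cars2, Dars, Mars, Pars2, Rars2 and Yars2), and 0 genes were called in opposite directions. Calls in introns alone were higher for Farsa, Qars and Yars and lower for Aimp2, Iars2 and Lars. Of 16 mitochondrial genes 6 were called lower and 0 higher by edgeR, where 0 had an unadjusted p under 0.05 with a positive change and DESeq2 called 0. Aars2 was the mitochondrial gene called higher with the block. The 18 cytosolic genes had 7 higher and 3 lower (9 and 4 with the block).

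Eprs was at 91.05, 96.5, 95.4 and 90.4 intronic CPM in Mock and 211, 157.5, 185 and 199 in Pilo, and rose by 1.01 (SE 0.10, fold 2.02, edgeR adjusted p = 4.26e-06). Hars rose by 0.83 (fold 1.77, edgeR adjusted p = 2.74e-05), from 49.1 to 59.2 CPM in Mock to 81.9 to 102 in Pilo. Aars rose by 0.66 (SE 0.11, edgeR adjusted p = 0.000268), and all Pilo libraries were above all Mock libraries in these 3 genes. Among the falls Pars2 had the largest size, -1.235 (SE 0.265, edgeR adjusted p = 0.00169), on only 15 to 63 intronic counts per library. Rars2 fell by 0.52 (SE 0.10, edgeR adjusted p = 0.000602), from 164 to 189 CPM in Mock to 111 to 136 in Pilo. Some calls lay near the threshold. Yars (0.28, edgeR adjusted p = 0.0255) did not pass when Mock replicate 1 or 4 or Pilo replicate 1, 3 or 4 was left out (0.051 to 0.0765), with a log2 fold change of 0.243 to 0.28 in these fits. Nor did Aimp2 without Mock 1 (0.0548), Mock 3 (0.0512) or Pilo 2 (0.0545), or Yars2 without Mock replicate 2 (0.0502). Others passed in some alternatives. Vars2 was called lower with the block (edgeR adjusted p = 0.00249), with no filter on low counts (0.045) and without Mock replicate 2 (0.00881) or Pilo replicate 3 (0.0267). Kars was called lower with the block (0.043) and without Pilo replicate 1 (0.0333). Iars was called higher with the block (0.00739), with DESeq2 (0.0488) and without Pilo replicate 1 (0.0486).

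The exonic change was then compared with the intronic change of the same gene, as the interaction of region and treatment in the second table. The exonic change lay above the intronic one in 6 of 38 genes (Fars2, Lars, Iars2, Tars, Rars and Gars) and below it in 7 (Hars, Qars, Eprs, Farsa, Sars, Nars and Tars2). Over 13047 genes 13.5% were called above and 12.8% below. Hars had the smallest p, with 0.42 in exons, 0.83 in introns and a difference of -0.41 (SE 0.07, edgeR adjusted p = 0.0012). Qars had 0.17 and 0.55 (difference -0.37, edgeR adjusted p = 0.00124) and Eprs 0.67 and 1.01 (-0.34, edgeR adjusted p = 0.00289). In these genes the intronic counts rose and the exonic counts showed a smaller value of the same sign.

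Fars2 showed the opposite order: 0.59 in exons and 0.06 in introns, a difference of 0.53 (SE 0.10, edgeR adjusted p = 0.00234). Its intronic counts lay between 59.0 and 75.6 CPM in Mock and 64.2 and 70.6 in Pilo, so the groups overlapped. Lars, the leucyl enzyme, fell in introns by 0.42 and had -0.05 in exons of the same table (difference 0.38, edgeR adjusted p = 0.0063). The differences of Rars, Gars, Nars, Iars2 and Tars2 lay near the threshold. That of Rars did not pass with RLE size factors (edgeR adjusted p = 0.0533) or when Mock replicate 1, 2 or 3 or Pilo replicate 1, 2 or 4 was left out (up to 0.179), with differences of 0.151 to 0.21. That of Gars did not pass when any of Mock 1 to 3 or Pilo 2 to 4 was left out (up to 0.0993, differences of 0.174 to 0.202), and that of Nars for Mock 1, 2 and 4 and Pilo 1, 3 and 4 (up to 0.11, -0.23 to -0.176). Iars2 did not pass without Mock 2, Pilo 3 or Pilo 4 (up to 0.0558, 0.223 to 0.265) and Tars2 without Pilo replicate 4 (0.0538, -0.208). Without Pilo replicate 1 the count above rose from 6 to 8, with Aimp1 and Kars among those added, and it was 3 with Mock 2 or Pilo 4 left out.

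**Figure D5:**
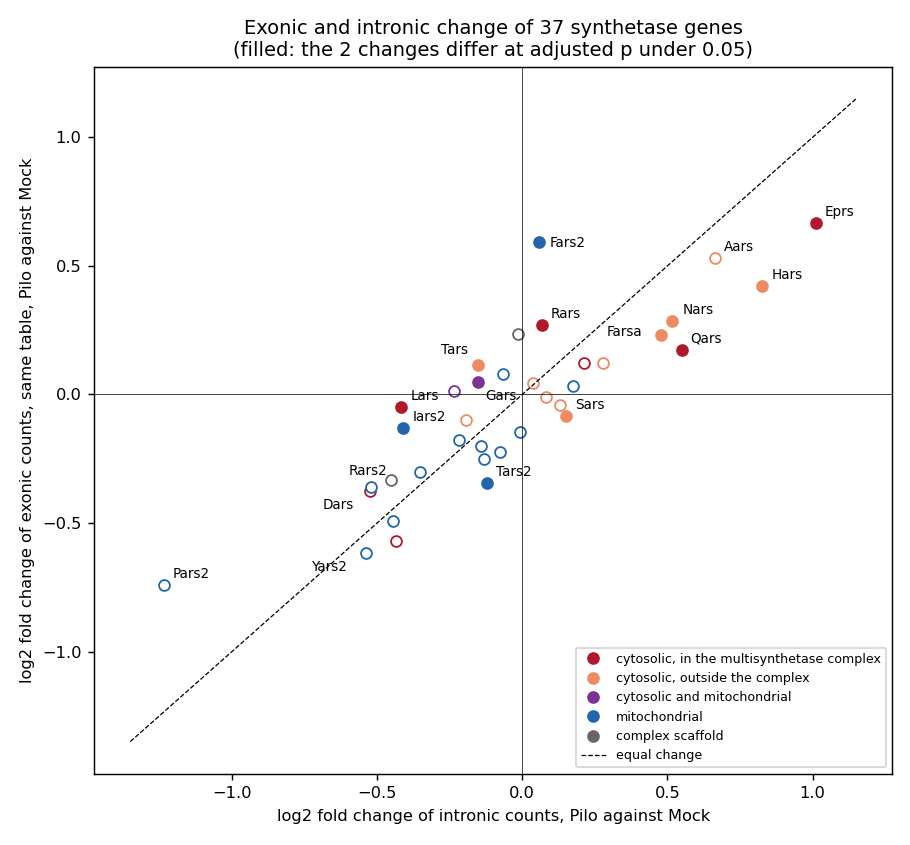
Exonic against intronic log2 fold change in the second table for 37 genes, coloured by compartment; the dashed line marks equal change and filled points are genes whose changes differed at adjusted p under 0.05. Hars, Qars and Eprs lie below the line on the right, and Fars2 lies above it near 0 on the intronic axis.

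The synthetase genes were next set beside Atf4 and the amino acid response. Atf4 rose by 0.63 (SE 0.08, edgeR adjusted p = 5.28e-05), from 72.7 to 85.4 CPM in Mock to 115.7 to 129 in Pilo. Of 12 synthetase genes reported as Atf4 targets, 3 rose (Aars, Eprs and Nars), 1 fell (Mars) and 8 passed in neither direction, with a median of 0.108. The other 8 cytosolic or dual genes had 2 higher, 1 lower and a median of 0.136. The shares over all genes tested were 15.6% higher and 16.2% lower. Whether the reported targets differ from the other 8 genes was not tested. The genes with TGATGNAA upstream, shown above, had 0.56 for Aars, which rose, and 0.08 for Gars and 0.14 for Tars, which did not pass. Eprs, which rose, and Mars, which fell, had no match. No window was at hand for Hars, Nars and Rars, which rose, so they were not searched. The same holds for Cars, Lars and Wars, which are among the 12 reported targets.

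Of 32 other Atf4 targets and amino acid response genes 13 rose and 3 fell, beside the 15.6% and 16.2% of all genes called higher and lower. With the replicate block 16 were called higher and 5 lower, and without Mock replicate 1 there were 9 higher. Ppp1r15a, the phosphatase subunit that reverses eIF2 phosphorylation, rose by 1.39 (SE 0.14, edgeR adjusted p = 1.86e-05). Gpt2, a mitochondrial alanine aminotransferase, rose by 1.31 (SE 0.11, edgeR adjusted p = 4.28e-06), from 50.6 to 62.6 CPM in Mock to 121 to 169 in Pilo. The amino acid transporters Slc7a5 and Slc7a1 rose by 0.97 (SE 0.08, edgeR adjusted p = 5.51e-06) and 0.80 (SE 0.08, edgeR adjusted p = 1.65e-05). Asns, asparagine synthetase and a much used readout of Atf4, had 0.12 (SE 0.09, edgeR adjusted p = 0.331), with overlapping groups. The falls were those of Pck2, Shmt2 and Vldlr. Of 11 eIF2 kinases and amino acid sensors 3 rose: Eif2ak3, the kinase of endoplasmic reticulum stress, by 0.73 (SE 0.07, edgeR adjusted p = 1.53e-05), Impact, an inhibitor of Gcn2 activation, by 0.39, and Ppp1r15b, the constitutive eIF2 phosphatase subunit, by 0.37. In exonic counts none of the 11 was called lower by edgeR, 0 had an unadjusted p under 0.05 in that direction and DESeq2 called 0. Eif2ak4, which encodes the kinase Gcn2 that senses uncharged tRNA, had -0.04 (SE 0.06). In intronic counts edgeR called 3 of the 11 higher and 3 lower, beside 19.6% and 21.9% of all genes. The intronic falls were those of Eif2ak1 (-0.40, edgeR adjusted p = 0.00346), Eif2s1 (-0.68, 0.00354) and Castor2 (-0.93, 0.000292).

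Genes that work beside the synthetases had negative values in 12 of 15 cases. Of these 15 relatives and tRNA partners 7 fell, 1 (Dtd1) rose and 7 passed in neither direction, with a median of -0.26, beside 16.2% of all genes called lower and 15.6% higher. With the block 8 were called lower, adding Trnt1 (edgeR adjusted p = 0.00159). Dtd1, which removes D-amino acids from tRNA, had 0.32 (edgeR adjusted p = 0.0282) and was not called with no filter on low counts, or when Mock 2, 3 or 4 or Pilo 1 or 3 was left out. Pstk, which phosphorylates seryl-tRNA on the way to selenocysteine, was at 88.9, 84.9, 83.5 and 77.3 CPM in Mock and 35.2, 35.0, 40.8 and 29.9 in Pilo. It fell by 1.25 (SE 0.09, edgeR adjusted p = 2.02e-06), a larger change than in any of the 39 genes. Sepsecs, which completes selenocysteinyl-tRNA, fell by 0.58 (SE 0.09, edgeR adjusted p = 0.000282). Ptrh2, a peptidyl-tRNA hydrolase, fell by 0.99 (SE 0.13, edgeR adjusted p = 0.000101). Gatc, a subunit of the amidotransferase that makes glutaminyl-tRNA in mitochondria, fell by 0.73 (SE 0.10, edgeR adjusted p = 0.000128). The tRNA exporter gene Xpot, Mtfmt and Qrsl1 also fell.

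Of 11 elongation factor genes 3 rose, Eef2 by 0.51 (SE 0.07, edgeR adjusted p = 0.000156), Eif5a by 0.43 (SE 0.08, edgeR adjusted p = 0.00103) and Eef1a1 by 0.32 (SE 0.09, edgeR adjusted p = 0.0179). All 3 act in cytosolic translation. Over all genes tested 15.6% were called higher and 16.2% lower. In exonic counts none of the 11 was called lower by edgeR, 1 (Gfm2) had an unadjusted p under 0.05 in that direction and DESeq2 called 1. The replicate block gave 2, Gfm2 (edgeR adjusted p = 0.00568) and Eef1d (edgeR adjusted p = 0.0477). The mitochondrial factors Tufm, Tsfm, Gfm1 and Gfm2 had -0.004, -0.19, -0.11 and -0.18. In intronic counts edgeR called 3 of the 11 higher and 1 lower, beside 19.6% and 21.9% of all genes. The intronic fall was that of Gfm2 (-0.355, edgeR adjusted p = 0.00658).

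Neighbouring genes were checked for counts that could be shared, since the strand setting of the counting is not given in the sources used here. Besides the overlaps named above, Iars2 shares 22.9% of its exon length with Rab3gap2 on the other strand, which rose by 0.29 (SE 0.10, edgeR adjusted p = 0.0381) while Iars2 had -0.105. Aars shares 14.3% with Exosc6 on its own strand, which is listed at 0 in all 8 libraries. That 0 does not show whether Exosc6 reads enter the Aars counts, which was not tested. Mars shares 68 bases with Ddit3, an Atf4 target on the other strand that rose by 0.41 (SE 0.13, edgeR adjusted p = 0.0277) as Mars fell. Starts within 1000 bases on opposite strands were found for 12 of the genes. Among these, Rars2 fell while its partner Orc3 had -0.03, and Kars had 0.02 while Terf2ip rose by 0.355 (edgeR adjusted p = 0.00303).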

How the data were processed

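The authors deposited raw read counts per gene, whole numbers that were not normalized, in 2 tables: 1 of exonic counts for Ensembl genes, and 1 of exonic and intronic counts for Entrez genes. The submitters' processing notes name STAR 2.7.1a and mm10, HTSeq 0.11.2 for which no role is stated, Trimmomatic 0.39, and edgeR with R 4.1.1. What strand setting and annotation release were used is not given in the sources used here, so overlapping genes may share reads. Libraries were directional and polyadenylated, per the labels' protocols. Counts were tested over all genes with edgeR 4.0.16 in R 4.3.3 (quasi-likelihood F-test, robust, TMM, filterByExpr with a minimum count of 10, Benjamini-Hochberg adjustment at 0.05), Pilo against Mock, 4 libraries each. All 39 genes passed that filter in the exonic table and all 38 in the intronic columns. The interaction of region and treatment had the sample as a covariate. A standard error is the size of the coefficient without the prior count over the square root of F. CPM are scaled by TMM. The tests were also run on simulated counts with a single fixed dispersion and no replicate pairs. These libraries differ from that setting, so no support is drawn from it. Alternatives were DESeq2 1.42.0, RLE scaling, no filter, the second table's exonic columns, a replicate block and leaving out each library.

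The members, lists and rules were chosen with earlier results of these data known. Full statistics were given for the 10 members of smallest exonic p, the 3 largest changes of either sign, the smallest interaction p and up to 4 genes per other list; further genes were named after their values were seen. Some values and sequences that enter the counts are not reported here, nor drawn. Replicate numbers come from the titles. Libraries with the same number deviated together from their group means (Pearson r 0.425, 0.477, 0.454 and 0.450 over genes). The replicate block therefore treats the numbers as pairs, whereas the main tests of Pilo against Mock do not. Correlations for libraries of different numbers are not given. Library columns were matched between tables by such deviations, with r of 0.993 to 0.996. Within groups, libraries differed beyond sampling noise, with a chi-square of 10.2 to 34.2 per degree of freedom. Gene positions are from GENCODE vM21 and upstream sequences from RefSeq, both on GRCm38. Depth ranges are given with the data; the smallest exonic count of any of the 39 genes in a library was 108.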

Additional observations from a re-analysis of the deposited data

Results flagged for a closer look

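Of 154 sets of 4 values examined (each gene in each group, exonic and intronic), 4 had 1 library far from the other 3 by Dixon's test, and chance gives about 1 in 20. In exonic counts, Lars in Pilo replicate 2 was at 85.66 CPM, above the other Pilo libraries at 77.1 to 77.4, and Tars2 in Mock replicate 3 was at 100.2 CPM, below the other Mock libraries at 114 to 117. In intronic counts, Rars2 in Mock replicate 4 was at 164 CPM, below the others at 187 to 189, and Yars2 in Pilo replicate 1 was at 16.97 CPM, above the others at 12.3 to 13.0.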

How the results depend on the processing

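Over the 39 genes and all alternatives run, 1304 values of single genes were recomputed: 1232 kept their side of the threshold, 40 lost a call, 32 gained one and 0 called values changed sign. The medians of the cytosolic and mitochondrial genes moved by less than the spread between replicates in every alternative. With the replicate block the exonic calls rose from 7 to 11 higher and from 8 to 12 lower, those of cytosolic enzymes to 9 higher, mitochondrial intronic calls to 1 higher, elongation factors to 2 lower and amino acid response genes to 5 lower; the other counts stayed within 1.5 times. No block was added to the interaction, whose sample term already holds it. Elongation factors had 1 lower exonic call with DESeq2 and 1 with the exonic columns of the second table, against 0. Relatives and tRNA partners had 0 higher calls with no filter on low counts, against 1. Leaving out 1 library gave 5 to 8 higher exonic calls for cytosolic enzymes (8 without Pilo replicate 3), 0 to 1 for relatives and tRNA partners (0 without 5 of the 8 libraries) and 3 to 8 members with an exonic change above the intronic one. The cause of these shifts was not tested. Intronic Pars2, at 15 to 63 counts per library, is limited most by depth.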
